A study of Mus musculus with 6 samples.

Results

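Jchain and 4 other genes of the B lineage, Mzb1, Cd79a, Cd79b and Ms4a1, were followed across 6 infarcted mouse hearts measured on Clariom S arrays. The 5 genes were chosen by symbol from the array annotation, each had 1 of the 22206 array features, and earlier results of these data were known when they were picked. Jchain in particular was picked for its values in the comparison of transgenic with control hearts, so the values of the 5 genes are given as a description with no test. All hearts came from male mice whose left coronary artery was ligated at 8 weeks of age, and mice with a well preserved ejection fraction 2 days later were removed from the study. Control mice (Ctrl, Tcf21iCre/Tomato) were sampled 2 or 3 months after infarction and transgenic mice (TTg, Tcf21iCre/Tomato/MGTH2A) at 3 months, with 2 hearts and 2 arrays in each of the 3 groups. All groups therefore carried the Cre, the Tomato reporter and an infarct, and there was no unoperated heart. The Tcf21 promoter drives the Cre, which is a tool for fibroblasts and related cells of the heart, and MGTH2A is a construct that expresses 4 factors used to turn fibroblasts into cells like cardiomyocytes: Gata4, Hand2, Mef2c and Tbx5.

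B cells carry an antigen receptor on their surface and, once activated, can become plasma cells, which secrete antibody. The receptor signals through Cd79a and Cd79b, and Ms4a1 (CD20) is a surface protein of mature B cells that plasma cells lose. Jchain links the units of secreted polymeric IgM and IgA, and Mzb1 is a chaperone of the endoplasmic reticulum that helps in the folding and secretion of antibody. Injured hearts hold B cells, which are known to take part in the immune response to infarction.

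Because the account turns on Jchain, the 250 bases before its start are shown beside those of Cd79a, the signalling chain of the B cell receptor, as RefSeq gives them on GRCm38.p6. The Jchain stretch lies at chr5:88527898-88528147 on the minus strand and the Cd79a stretch at chr7:24897247-24897496 on the plus strand. Capitals mark matches to any of 6 motifs searched on both strands.
Jchain: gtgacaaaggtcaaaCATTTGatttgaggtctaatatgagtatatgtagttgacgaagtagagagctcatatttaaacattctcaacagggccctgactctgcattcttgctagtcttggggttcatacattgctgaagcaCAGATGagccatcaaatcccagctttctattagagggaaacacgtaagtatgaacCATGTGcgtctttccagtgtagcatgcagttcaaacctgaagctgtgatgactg
Cd79a: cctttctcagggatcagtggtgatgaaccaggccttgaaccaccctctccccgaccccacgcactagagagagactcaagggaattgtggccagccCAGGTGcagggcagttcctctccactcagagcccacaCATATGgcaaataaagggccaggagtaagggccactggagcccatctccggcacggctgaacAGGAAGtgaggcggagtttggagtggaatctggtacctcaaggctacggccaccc

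The Jchain stretch held 3 E-boxes (CANNTG), the motif of basic helix-loop-helix factors such as Hand2 and the B cell factor Tcf3, and the Cd79a stretch held 2. At least 1 E-box lay in 66.2% of the 32851 stretches of this length in the table. The Cd79a stretch also held the ETS motif AGGAAG, present in 29.5% of stretches, and no matches overlapped. The remaining motifs were in neither stretch. They were the octamer ATGCAAAT (1.60% of all stretches), which B cell factors bind, the MEF2 motif (2.92%), the GATA motif AGATAA (9.99%) and the T-box motif GGTGTG (16.3%). A match describes the letters alone.

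Jchain separated the 3 groups more widely than the hearts within a group. On the log2 scale of the deposited values, the Ctrl hearts at 2 months had Jchain values of 7.18 and 6.69, the Ctrl hearts at 3 months 9.07 and 8.87, and the TTg hearts 4.75 and 5.08. The highest values were thus those of Ctrl at 3 months, the lowest were those of TTg, and no 2 groups overlapped. Group means were 6.94 ± 0.35, 8.97 ± 0.14 and 4.92 ± 0.23 (SD, n = 2 each). The gap between the hearts of a group was 0.49, 0.20 and 0.33, which compares with a median gap over all features of 0.32, 0.31 and 0.27. In whole heart RNA, fewer cells of a type and less RNA per cell cannot be told apart.

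The TTg mean lay 4.06 below that of Ctrl at 3 months on the log2 scale (SE 0.27 from the limma fit, n = 2 in each group), which is 16.6-fold. Over the 22206 features this was the 3rd lowest difference. Leaving out each array of the 2 groups in turn gave differences from −4.22 to −3.89. Between 2 and 3 months, Ctrl hearts differed by 2.04 ± 0.27 (SE), with the later hearts 4.10-fold higher, the 44th highest difference. TTg hearts at 3 months lay below Ctrl hearts at 2 months by 2.02 ± 0.27, or 4.06-fold, the 100th lowest difference. These comparisons share arrays with each other and are not independent.

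**Figure D1:**
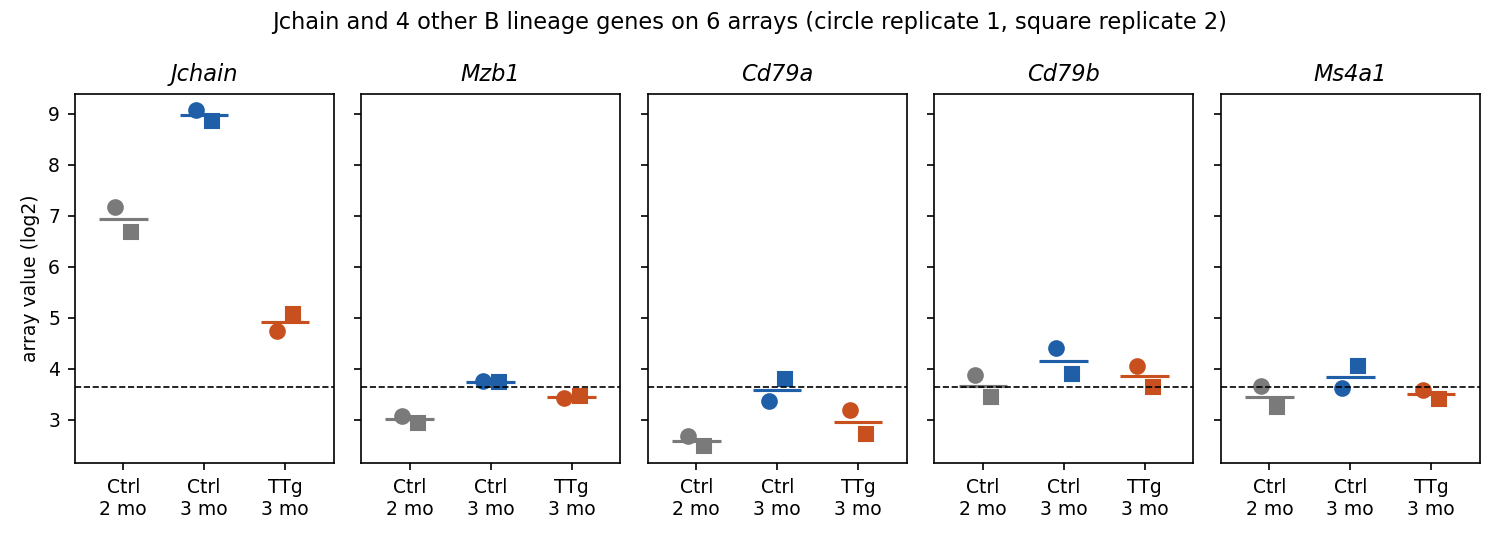
Deposited log2 values of the 5 genes on each array (points, circle for replicate 1 and square for replicate 2) with the mean of each group (bars), for Ctrl at 2 and 3 months and TTg at 3 months. The dashed line is the 30th percentile of the mean of all features, 3.65. Jchain runs from 4.75 to 9.07, and the other 4 genes stay between 2.48 and 4.41.

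The order TTg, then Ctrl at 2 months, then Ctrl at 3 months, with no overlap, was shared by 215 features, 0.968% of all. Among these, Jchain had the widest separation. The lowest Ctrl 2-month heart lay 1.61 above the highest TTg heart, and the lowest Ctrl 3-month heart lay 1.69 above the highest Ctrl 2-month heart. Jchain was the single feature with both gaps at 1 or more (0.00450%). This count was made after the values of Jchain were seen.

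Mzb1, the other plasma cell gene among the 5, lay near the floor of the array. Its values were 3.08 and 2.94 in the 2-month Ctrl hearts, 3.76 and 3.74 in the 3-month Ctrl hearts, and 3.43 and 3.46 in the TTg hearts. The groups did not overlap, and Ctrl at 3 months was the highest, but Ctrl at 2 months was below TTg, unlike Jchain. TTg differed from Ctrl at 3 months by −0.31 ± 0.22 (SE) and from Ctrl at 2 months by 0.44 ± 0.22. The mean of Mzb1 over the arrays, 3.40, was at the 23.3rd percentile of all features, below the 30th percentile (3.65) under which a feature is called dim here. The size of a difference between dim values depends on the background signal.

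Of the B cell surface genes, Cd79a and Ms4a1 were dim as well, and Cd79b had a mean of 3.89, at the 35.2nd percentile. Cd79a was at 2.68 and 2.48 in the 2-month Ctrl hearts, at 3.36 and 3.80 in the 3-month Ctrl hearts and at 3.19 and 2.73 in the TTg hearts. The Ctrl 3-month hearts were the highest and the Ctrl 2-month hearts the lowest, without overlap. TTg differed from Ctrl at 3 months by −0.62 ± 0.28, and Ctrl was higher at 3 than at 2 months by a factor of 2.0 (SE 0.28 on the log2 scale).

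Cd79b was at 3.88 and 3.45 in the 2-month Ctrl hearts, 4.41 and 3.90 in the 3-month Ctrl hearts and 4.05 and 3.65 in the TTg hearts. Its TTg values overlapped those of both Ctrl groups. The differences were −0.31 ± 0.30 for TTg against Ctrl at 3 months and 0.49 ± 0.30 for Ctrl at 3 against 2 months.

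Ms4a1 was at 3.66 and 3.25 in the 2-month Ctrl hearts, 3.62 and 4.06 in the 3-month Ctrl hearts and 3.59 and 3.41 in the TTg hearts. Its TTg hearts lay just under those of Ctrl at 3 months, whereas the Ctrl groups overlapped. TTg differed from Ctrl at 3 months by −0.34 ± 0.27 and from Ctrl at 2 months by 0.05 ± 0.27. Of the 5 genes, Jchain and Cd79b had a mean at or above 3.65, and Jchain alone was above it on all 6 arrays.

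In each comparison with TTg, the difference of Mzb1 lay further from that of Jchain than from those of the B cell surface genes. Jchain was picked for its values in such a comparison, and Mzb1, Cd79a and Ms4a1 were dim. Nothing is therefore read from these distances. Against Ctrl at 3 months, the TTg difference was −4.06 for Jchain, and for Mzb1, Cd79a, Cd79b and Ms4a1 it lay between −0.62 and −0.31. Against Ctrl at 2 months, TTg was lower for Jchain, at −2.02, and the other 4 genes were at 0.05 to 0.44. In the comparison of Ctrl at 3 and 2 months all 5 genes were higher at 3 months, from 0.39 for Ms4a1 to 2.04 for Jchain. All 5 genes had their highest group mean in Ctrl at 3 months.

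The values of TTg and Ctrl at 3 months did not overlap for 4 of the 5 genes, all lower in TTg, where 19.3% of all features were lower without overlap. Between Ctrl at 3 and 2 months 4 of the 5 were higher without overlap, where the share of all features was 18.3%. Against Ctrl at 2 months, 1 was lower and 2 were higher in TTg without overlap, where the shares were 18.9% and 21.2%. No 2 of the 3 groups overlapped for 3 of the 5 genes, beside 8.28% of all features, and Mzb1 and Cd79a shared the order Ctrl at 2 months, TTg, Ctrl at 3 months with 1.58% of features. The genes were chosen with these values known, so nothing is read from the counts. The median difference of the 5 genes was −0.34, 0.74 and 0.19 in the 3 comparisons, beside 0.01, 0.01 and 0.02 for all features.

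Over the 6 arrays Jchain correlated with Mzb1 at 0.42, with Cd79b at 0.44, with Cd79a at 0.54 and with Ms4a1 at 0.56 (Pearson, n = 6 arrays in 3 groups, a description). Ranked by this correlation among the 22205 other features, the 4 genes stood at places 2993 to 4774. Among the other 4 genes, Cd79a correlated with Mzb1 at 0.88 and with Ms4a1 at 0.86. The remaining pairs lay between 0.47 (Cd79b with Ms4a1) and 0.70 (Cd79b with Mzb1). Mzb1, Cd79a and Ms4a1 were dim.

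The features most like Jchain were sought among 1076 that were not dim and ranged over at least 2 on the log2 scale, of which 953 had a symbol. The 5 highest with a symbol were Cd300ld (0.96), a receptor of myeloid cells, Cpxm2 (0.95), a secreted protein of the carboxypeptidase family, Resf1 (0.93), a factor that silences retroelements, Gnao1 (0.93), a G protein subunit, and Panx1 (0.93), a membrane channel. Cd300ld was at 7.18 and 7.57 in the 2-month Ctrl hearts, 8.71 and 8.15 in the 3-month Ctrl hearts and 6.44 and 6.27 in the TTg hearts, so its groups followed the order of Jchain over a range of 2.44 instead of 4.32. Resf1 had the widest range of the 5, from 9.24 in TTg replicate 1 to 13.88 in Ctrl 3-month replicate 1. None of the 5 is in the B lineage lists below, and 0 features without a symbol reached a correlation of 0.95.

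**Figure D2:**
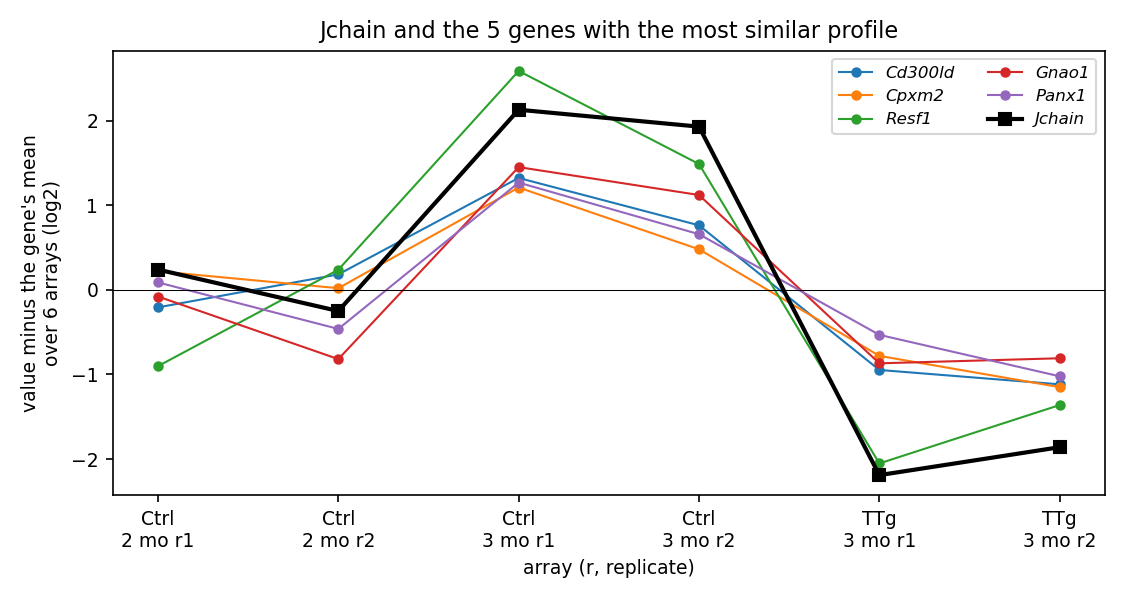
Values of Jchain and of the 5 genes with the highest correlation with it, each minus its own mean over the 6 arrays (log2, y axis), on each array (x axis, r for replicate). All 6 genes are highest on the Ctrl 3-month arrays, and Jchain and Resf1 span the widest ranges, 4.32 and 4.64.

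The wider B lineage was read from 9 lists with 117 genes, of which 96 in 8 lists were measured, 91 of them besides the 5 genes above. None of the 91 passed limma's test in any comparison (adjusted p under 0.05, Benjamini-Hochberg over all features), where 0.00450% of features passed for TTg against Ctrl at 3 months, 0.00450% for Ctrl at 3 against 2 months and 0% for TTg against Ctrl at 2 months. The smallest adjusted p among the 91 were 0.646, 0.519 and 0.389. At an unadjusted p under 0.05, 9 of the 91 were lower and 0 higher in TTg than in Ctrl at 3 months, beside 4.11% and 3.35% of all features. For Ctrl at 3 against 2 months 4 were higher and 4 lower (3.91% and 4.09% of all features). For TTg against Ctrl at 2 months 6 were higher and 5 lower (4.30% and 5.41%). The 9 genes lower in TTg than in Ctrl at 3 months were 3 of receptor signalling, 2 of the endoplasmic reticulum, 2 receptors for antibody, 1 surface gene and 1 transcription factor. Plasma cell identity had 0. Some of the 9, such as Bcl6 and Fcgr3, are also expressed by other cells. Without overlap, 29 of the 91 were lower and 7 higher in TTg than in Ctrl at 3 months, beside 19.3% and 19.1% of all features. For Ctrl at 3 against 2 months 27 were higher and 10 lower (18.3% and 17.4%), and for TTg against Ctrl at 2 months 14 were higher and 22 lower (21.2% and 18.9%). By direction alone, 62 of the 91 were lower and 26 higher in TTg than in Ctrl at 3 months. Of all 22206 features 10724 were lower and 11311 higher, which is the background for the counts by list. The median of the 91 differences was −0.14 for TTg against Ctrl at 3 months, 0.17 for Ctrl at 3 against 2 months and −0.09 for TTg against Ctrl at 2 months. Without Ctrl 3-month replicate 1 the first of these medians was −0.06 and the second 0.04. The unadjusted count of genes lower in TTg than in Ctrl at 3 months was 3 without that array and 17 without Ctrl 3-month replicate 2. None of the 12 immunoglobulin constant region genes looked up matched a symbol of the annotation used, so the antibody chains that Jchain joins were not analysed here.

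Genes of plasma cell identity were mostly dim, 9 of the 12 measured and Mzb1 among them. Sdc1 (CD138), a surface proteoglycan of plasma cells that epithelial and other cells also carry, was at 7.30 and 6.48 in the 2-month Ctrl hearts, 7.12 and 7.00 in the 3-month Ctrl hearts and 6.38 and 6.37 in the TTg hearts. It was lower in TTg than in every Ctrl heart, by −0.69 ± 0.31 against 3 months (adjusted p = 0.679, limma). Slamf7 had a difference of −0.71 ± 0.39, with overlapping groups. Prdm1, the transcription factor of plasma cell differentiation, lay the other way at 0.40 ± 0.37. Its values were 3.76 and 3.42 in the 3-month Ctrl hearts and 4.51 and 3.46 in the TTg hearts. Against Ctrl at 2 months Prdm1 was higher in TTg by 1.14 ± 0.37, without overlap (adjusted p = 0.420, limma). Derl3, a gene of protein quality control, was higher in TTg than in Ctrl at 3 months by 0.29 ± 0.23. Slamf7, Prdm1 and Derl3 were all dim. The survival receptor gene Tnfrsf17 (BCMA) and the transcription factor genes Irf4 and Pou2af1 also had means below 3.65. Of the 10 genes besides Jchain and Mzb1, 5 were lower and 4 higher in TTg than in Ctrl at 3 months and Irf4 had equal means, with a median of −0.01. The median over all 12 genes, −0.03, turned to 0.01 with median centring and to 0.02 with Ctrl 3-month replicate 2 left out. It was −0.21 without TTg replicate 1 and 0.10 without TTg replicate 2. Over the 3 genes that were not dim, Jchain, Sdc1 and Pim2 (−0.03), the median was −0.69, which is the value of Sdc1. Jchain, among these 3, was picked for this difference.

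B cell surface genes other than Cd79a, Cd79b and Ms4a1 were lower in TTg in 7 of 13 and higher in 5, with a median of −0.08. Over all 16 the median was −0.17, and without Ctrl 3-month replicate 1 or TTg replicate 1 it was −0.08 or −0.05. Cd72, an inhibitory coreceptor, was at 5.84 and 4.93 in the 3-month Ctrl hearts and 4.74 and 4.24 in the TTg hearts, a difference of −0.90 ± 0.37 (adjusted p = 0.664, limma). Cd180, a Toll-like receptor relative that macrophages also express, differed by −0.50 ± 0.40, and Tnfrsf13c, the receptor for the survival factor BAFF, by −0.25 ± 0.24. Fcer2a had a mean of 4.31 and differed by −0.17 ± 0.23, with overlap. Of all 16 genes 9 were dim, Cd22, Cr2 and Fcrla among them, whereas Fcer2a and Tnfrsf13c were not. Also dim were the B cell identity factor Pax5, at 2.71 to 3.28, and 5 of 6 precursor genes.

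**Figure D3:**
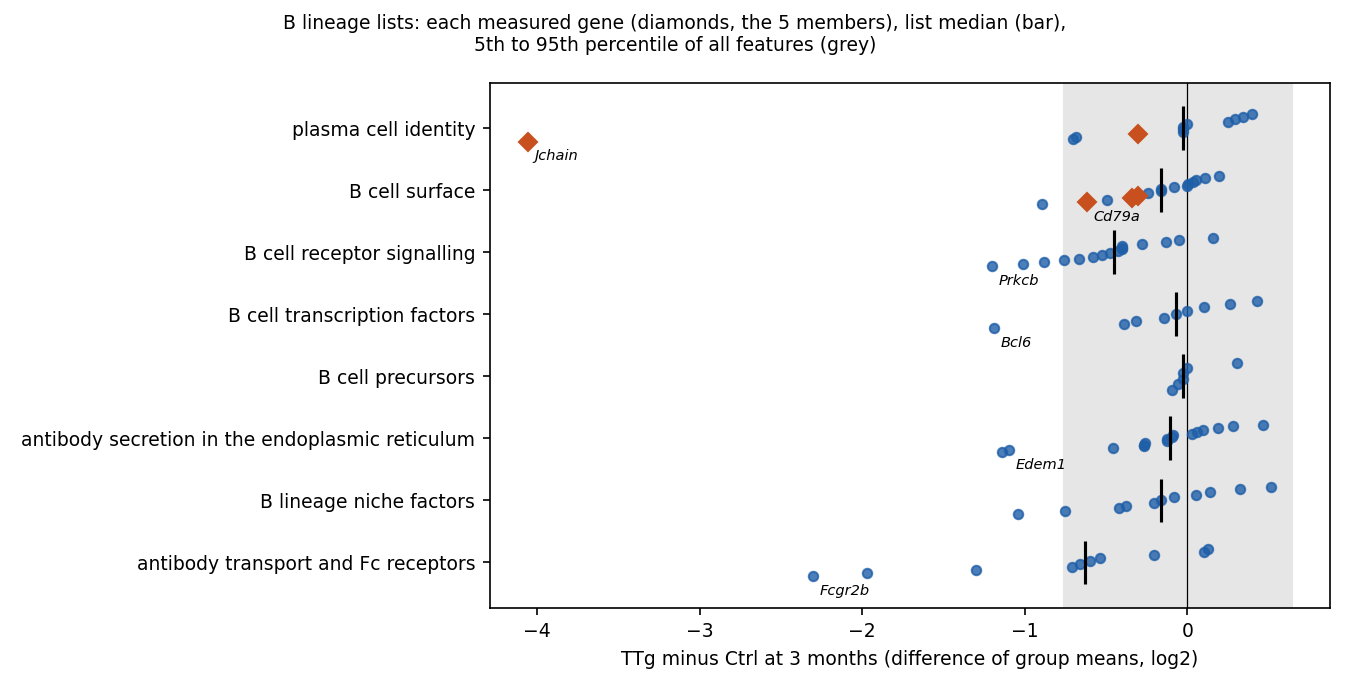
Difference of group means, TTg minus Ctrl at 3 months (log2, x axis), for each measured gene of 8 B lineage lists (points), with the median of each list (bars) and the 5 genes as diamonds. The grey band, from −0.76 to 0.64, holds the 5th to 95th percentile of all features; Jchain at −4.06 lies outside it, and the other 4 diamonds lie within it.

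Genes of B cell receptor signalling were lower in TTg than in Ctrl at 3 months in 15 of 16, beside 10724 of all 22206 features. Their median difference was −0.45. Without Ctrl 3-month replicate 1 the median was −0.28, with 12 of 16 lower, and without Ctrl 3-month replicate 2 it was −0.69. All 16 had a mean at or above 3.65, and many serve other leukocytes as well. Blk was the single gene of the list that was higher in TTg, by 0.16 ± 0.28, with overlap. Prkcb, a protein kinase C, was at 7.02 and 6.66 in Ctrl and 5.84 and 5.44 in TTg (−1.20 ± 0.27, adjusted p = 0.646, limma). Inpp5d (SHIP1), an inhibitory phosphatase, differed by −1.01 ± 0.44 and Pik3ap1, an adaptor for PI3 kinase, by −0.88 ± 0.34. Ptpn6 differed by −0.76 ± 0.57, with overlap, and Btk, a kinase of receptor signalling, by −0.67 ± 0.24. Among B cell transcription factors, Bcl6, a repressor of germinal centre B cells that other cells also express, was at 7.61 and 7.69 in Ctrl and 6.43 and 6.49 in TTg (−1.19 ± 0.28). The other 8 measured factors lay between −0.39 for Tcf3 and 0.43 for Bcl11a, and Ebf1, which mural cells of the heart also express, was at 12.07 to 12.79 on all arrays.

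The endoplasmic reticulum genes that antibody secretion draws on had means from 4.90 for Fkbp11 to 17.65 for Hspa5. Their median difference was −0.11 in TTg against Ctrl at 3 months, with 10 of 16 lower, but the median was 0.01 without TTg replicate 1 and −0.20 without TTg replicate 2. The size also depended on the scaling, at −0.05 with quantile normalization and −0.07 with median centring. Xbp1, the transcription factor of the secretory programme, differed little, at 12.13 and 12.02 in Ctrl and 12.11 and 12.10 in TTg. Txndc5, a disulfide isomerase, differed by −1.14 ± 0.47 and Edem1, which acts in the disposal of misfolded proteins, by −1.10 ± 0.25. Herpud1 lay the other way at 0.47 ± 0.40, with overlap. The chaperone Hspa5 (BiP) was at 17.49 and 17.96 in the 3-month Ctrl hearts and 18.15 and 17.86 in the TTg hearts, with overlap.

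Factors that attract or sustain B lineage cells had a median difference of −0.17 in TTg against Ctrl at 3 months, with 7 of 11 lower. Single arrays set its size and direction: it was −0.41 without TTg replicate 1, −0.40 without Ctrl 3-month replicate 2, 0.04 without TTg replicate 2, and 0 with Ctrl 3-month replicate 1 left out. Cxcl12, the chemokine that holds plasma cells in their niche, was at 11.30 and 11.45 in the 2-month Ctrl hearts, 12.50 and 12.09 in the 3-month Ctrl hearts and 12.29 and 11.89 in the TTg hearts. Both 3-month groups lay above Ctrl at 2 months without overlap, Ctrl by 0.92 ± 0.27 (adjusted p = 0.519, limma) and TTg by 0.72 ± 0.27 (adjusted p = 0.476, limma). Cxcl13, the B cell chemokine, ranged from 7.21 to 10.92, both in Ctrl at 3 months. Il5 was higher in TTg than in Ctrl at 3 months by 0.52 ± 0.31, without overlap (adjusted p = 0.761, limma). Tnfsf13b (BAFF) stayed between 3.86 and 4.35 and Il6 was dim.

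Receptors for antibody had a median difference of −0.63 in TTg against Ctrl at 3 months, with 8 of 10 lower. With the first or the second Ctrl 3-month heart left out it was −0.27 or −1.03. Fcgr2b, the inhibitory IgG receptor of B cells and macrophages, was at 10.84 and 8.05 in Ctrl and 7.18 and 7.11 in TTg (−2.30 ± 0.83, adjusted p = 0.661, limma). Fcgr3, an activating IgG receptor of myeloid and NK cells, was at 12.97 and 10.63 in Ctrl and 9.69 and 9.97 in TTg (−1.97 ± 0.68). In both, the Ctrl 3-month hearts lay further apart than those of TTg. Pigr, the receptor that carries antibody with Jchain across epithelia, was dim, at 2.58 to 3.52.

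Markers of other cells also differed between these groups, and their part in the values of Jchain was not tested. All 8 measured macrophage genes were lower in TTg than in Ctrl at 3 months, by a median of −1.55, although none passed by itself (smallest adjusted p = 0.661 in the macrophage, leukocyte and fibroblast lists, limma). The mean level of that list was 10.67 and 9.58 in the 2-month Ctrl hearts, 10.94 and 9.29 in the 3-month Ctrl hearts, and 8.82 and 8.09 in the TTg hearts. The 5 general leukocyte genes were lower too, with TTg list means of 6.98 and 6.71 beside 8.63 and 7.33 for the 3-month Ctrl hearts. All 7 fibroblast genes were lower, with TTg list means of 11.15 and 9.72 beside 12.67 and 11.55. The medians of the macrophage, leukocyte and fibroblast lists were −0.83, −0.58 and −0.78 without Ctrl 3-month replicate 1 and −2.27, −1.97 and −2.23 without replicate 2 of that group, and the fibroblast median was −0.79 without TTg replicate 2. All 3 list means were higher in replicate 1 than in replicate 2 of each group. For macrophages the replicates stood 1.09, 1.65 and 0.73 apart in Ctrl at 2 months, Ctrl at 3 months and TTg. Jchain was higher in replicate 1 of both Ctrl groups, by 0.49 and 0.20, and lower in replicate 1 of TTg, by 0.33. T cell genes had a median difference of −0.01, with 6 of 11 lower, and list means of 3.85 to 4.14 on all arrays.

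**Figure D4:**
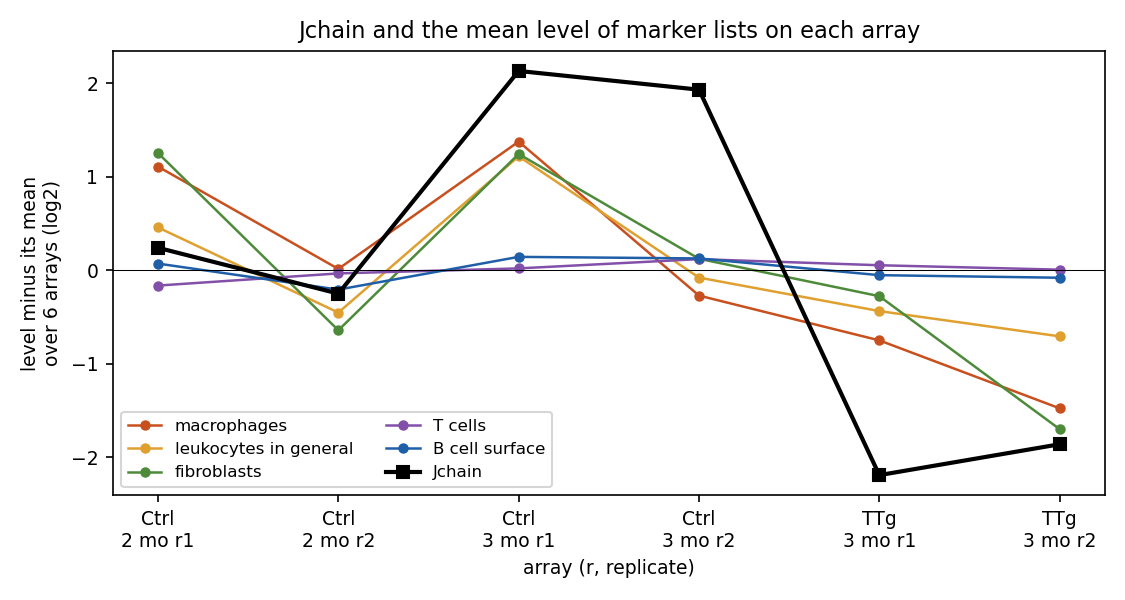
Jchain and the mean level of 5 marker lists, each minus its own mean over the 6 arrays (log2, y axis), on each array (x axis, r for replicate). The macrophage, leukocyte and fibroblast lists are lower on replicate 2 than on replicate 1 of each group. The list mean stays between 3.85 and 4.14 for T cells and between 3.58 and 3.93 for B cell surface genes.

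As a check of the tissue label, the list mean of 7 cardiomyocyte genes was 18.19 to 18.76 on all arrays, near the top of the scale at 19.93. Ctrl 2-month replicate 1 stood apart in adipocyte genes, with Adipoq at 10.34 against 3.98 to 4.83 on the other arrays, and in the chemokine Ccl21a, at 15.62 against 10.58 to 12.40. Jchain on that array was 7.18, and without it Jchain differed by 2.28 between Ctrl at 3 and 2 months and by −1.78 between TTg and Ctrl at 2 months. Replicate arrays correlated at 0.984, 0.986 and 0.989 over all features in Ctrl at 2 months, Ctrl at 3 months and TTg. The number of arrays, 2 in each group, limits the precision of every value, and p-values set differences against the spread between hearts that the series design calls independent.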

How the data were processed

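Heart RNA from 6 mice was measured on 1 array each. The values used are the log2 values per array feature that the authors deposited. The submitters' processing notes name Transcriptome Analysis Console 4.0, whereas the background correction, summary and normalization between arrays are not given in the sources used here. Array medians ran from 4.91 to 5.00, and no further normalization was applied. Gene symbols came from the platform annotation, which named 19572 features and left 2634 without a symbol. Where a symbol had several features (55 symbols), the one with the highest mean was used.

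All 22206 features on the 6 arrays were fitted with 1 mean per group in limma 3.58.1 in R 4.3.3 (3 residual and 4.13 prior degrees of freedom). Tests were two-sided, with Benjamini-Hochberg adjustment over all features. With 2 arrays in each group the smallest exact permutation p is 0.333. The pipeline was tested on simulated shifts larger than the differences of most list genes here, so its power for these was not measured. The 5 genes, the lists and the tests were chosen with earlier results of these data known. Genes were drawn by rule: the 5 genes, those of each list with the largest differences, and the 5 most like Jchain. In each list the rule took up to 4 genes for TTg against Ctrl at 3 months and up to 2 for each other comparison. It took them among genes whose higher group mean in the comparison was at or above 3.65, so some are dim by their mean over the arrays. Not every gene drawn is named in the text. Tnfrsf17, Irf4, Pou2af1, Cd22, Cr2, Fcrla, Pax5, Blk, Btk, Ebf1, Xbp1, Tnfsf13b, Il6, Pigr and Adipoq were added for their role or after their values were seen. Alternatives were median centring or quantile normalization of the arrays, a test without dim features, an intensity trend or a robust prior, the 2 groups alone, a replicate block, the mean of repeated features and leaving out each array.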

Additional observations from a re-analysis of the deposited data

How the results depend on the processing

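The groups do not overlap for Jchain, so leaving out an array could not turn its differences. With each array left out they ran from −4.22 to −3.89 for TTg against Ctrl at 3 months, from 1.79 to 2.28 for Ctrl at 3 against 2 months and from −2.27 to −1.78 for TTg against Ctrl at 2 months. With an array left out, TTg minus Ctrl at 3 months ran from −0.85 to −0.39 for Cd79a, −0.56 to −0.05 for Cd79b and −0.56 to −0.12 for Ms4a1. Cd79b (−0.03 to 0.40) and Ms4a1 (−0.16 to 0.25) had no stable direction for TTg against Ctrl at 2 months. For TTg against Ctrl at 2 months, the plasma cell identity list changed direction with dim features left out (median −0.52). That setting keeps 3 of 12 genes, Jchain among them, and its median is the value of Sdc1. The list also changed direction without TTg replicate 1 (−0.0075, range −0.0075 to 0.41 over the arrays left out). The cause was not tested.

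With all arrays, 1, 1 and 0 features passed limma's test in the comparisons of TTg with Ctrl at 3 months, Ctrl at 3 with 2 months and TTg with Ctrl at 2 months (1658, 1776 and 2156 at an unadjusted p under 0.05). Leaving out an array gave 0 to 2, 0 to 6 and 0 to 22. The 22 came without Ctrl 2-month replicate 2, where Ccl21a was the single B lineage list gene to pass (adjusted p = 0.026, limma); in every other fit run, 0 of these genes passed in any comparison. The first count was 2 with the 2 groups alone, the second was 0 with quantile normalization, with dim features left out and with an intensity trend, and the third was 1 with a robust prior. With the replicate block the counts were 11, 1 and 5, and the smallest adjusted p among the 91 list genes were 0.192, 0.400 and 0.191 (limma). Replicate numbers are in the labels, and same-numbered hearts deviated together in all 3 pairs of groups (correlations of 0.13, 0.14 and 0.12), but 2 pairs of hearts per comparison do not settle whether the numbers pair them. The causes were not tested. Dim features limit what can be said of Mzb1, Cd79a and Ms4a1.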
